A study of Mus musculus with 6 samples.

Results

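A set of 42 lysosomal genes was examined in RNA sequencing of mouse cerebellum. They were picked by symbol from the 53746 genes of the count table and encode cathepsins, other lysosomal hydrolases, and lysosomal membrane or regulatory proteins. Tissue was taken at 2 months of age from 3 control mice of genotype *N153S*LSL/LSL and from 3 mice that also carried *Pcp2-cre* (N153SLSL/LSLPcp2-cre, here Pcp2-cre mice). Both genotypes carry the *Sting1* N153S knockin behind a LoxP-Stop-LoxP cassette. The *Pcp2* promoter drives Cre in Purkinje cells, so removal of the stop is aimed at these neurons, while the RNA came from the whole tissue. Mice 1 and 2 of each genotype were labelled male and mouse 3 female.

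Lysosomes are acidic organelles that break down proteins, glycans, lipids and nucleic acids delivered by endocytosis, phagocytosis and autophagy. Their proteases and glycosidases work in a lumen acidified by a proton pump, and heavily glycosylated proteins line their membrane. Every cell has lysosomes, but some components, such as cathepsin S, CD68 and LAPTM5, are known as proteins of macrophages and microglia. TFEB is a transcription factor that raises many lysosomal genes together.

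Total counts per library lay between 6733178 and 10178218. The measures used are CPM (counts scaled to the library total) to compare mice and the deposited FPKM (fragments scaled to exon length and library size) to compare levels between genes. edgeR's quasi-likelihood test compared the genotypes over 16961 genes with enough counts. Upregulated and downregulated genes had to reach both 0.05 in adjusted p (Benjamini-Hochberg) and 0.5 in the size of the log2 fold change. Values of single mice are given in the order of mice 1, 2 and 3. The targeted gene *Sting1* had 22.8, 26.9 and 25.9 CPM in controls and 44.5, 34.5 and 35.6 CPM in Pcp2-cre mice. It was higher in Pcp2-cre cerebellum by a log2 fold change of 0.57 (adjusted p = 3.59e-04, edgeR), or 0.45 without Pcp2-cre mouse 1, under the threshold of 0.5, and mutant and wild-type reads are counted together. In public single-cell data the paper saw *Sting1* mRNA in microglia and little or none in neurons, Purkinje cells included. By protein staining, which the paper held to be more reliable, STING was found in Purkinje cells of wild-type cerebellum. In younger Pcp2-cre mice the paper saw STING protein rise in Purkinje cells, with no such rise in microglia or other neurons. Microglial markers also rose here, as given below, and their part in the *Sting1* rise was not tested. Granule cell markers summed to between 5193 and 5619 CPM in the 6 libraries. Control mice 1 and 2 stood apart in 8 choroid plexus markers, with a sum of 790.0 and 1228 CPM against 23.1 to 86.9 CPM in the other 4 libraries. Log2 fold changes are therefore also given with control mouse 3 as the sole control.

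Of the 42 genes, 41 passed the filter. In Pcp2-cre cerebellum 10 were called upregulated and 0 downregulated: *Cd68*, *Ctss*, *Laptm5*, *Pld4*, *Ctsd*, *Ctsz*, *Ctsh*, *Ctsc*, *Grn* and *Gusb*. Among all tested genes 1.37% were called upregulated, 1.79% downregulated and 3.17% either way. A further 9 passed the adjusted p with a smaller rise, *Ctsl*, *Hexa*, *Npc2*, *Cd63*, *Man2b1*, *Lgmn*, *Ctsb*, *Pld3* and *Ctsa*. The 19 higher genes compare with 2.99% of all genes, and 4.75% of all genes were lower where 0 of these were. The other 22 tested genes did not pass, among them *Lamp1*, *Lamp2* and *Tfeb*. At an unadjusted p under 0.05, 22 of the 41 were above 0 and 2 below, and DESeq2 called 0 downregulated. With control mouse 3 as the sole control the log2 fold changes of these 10 genes ran from 0.50 (*Gusb*) to 2.14 (*Cd68*). That mouse is the only female control and Pcp2-cre mice 1 and 2 are male, so sex and genotype are partly mixed in that fit. Adjusted p-values are over all 16961 genes.

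The median log2 fold change of the 41 genes was 0.20, against 0.0045 over all tested genes, and it was 0.24 with control mouse 3 alone. Values ran from -0.13 to 2.36, and 36 of 41 were above 0, as were 51.3% of all genes. In 27 of them every Pcp2-cre mouse lay above every control, which 14.7% of all genes showed, and in 2 (*Gaa* and *Neu1*) every Pcp2-cre mouse lay below, against 8.89% of all genes. Summed over the 42 genes, controls had 4346 to 4523 CPM and Pcp2-cre mice 4965 to 5200 CPM. The 2 ranges did not overlap, and the ratio of the means was 1.14. In whole tissue, more cells of a type and more RNA per cell cannot be told apart.

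By role, of 8 cysteine cathepsins 4 were called upregulated and 6 passed the adjusted p, with a median log2 fold change of 0.57. Of 4 other proteases 1 was called, of 10 glycosidases 1, of 6 lipid and nucleic acid hydrolases 1, and of 3 luminal cofactors 1. Of 7 membrane proteins 2 were called, *Cd68* and *Laptm5*. The proton pump, channel and regulator group had 0 of 3 tested genes called or past the adjusted p, at a median of 0.03. These groups are small, and differences between them were not tested.

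**Figure D1:**
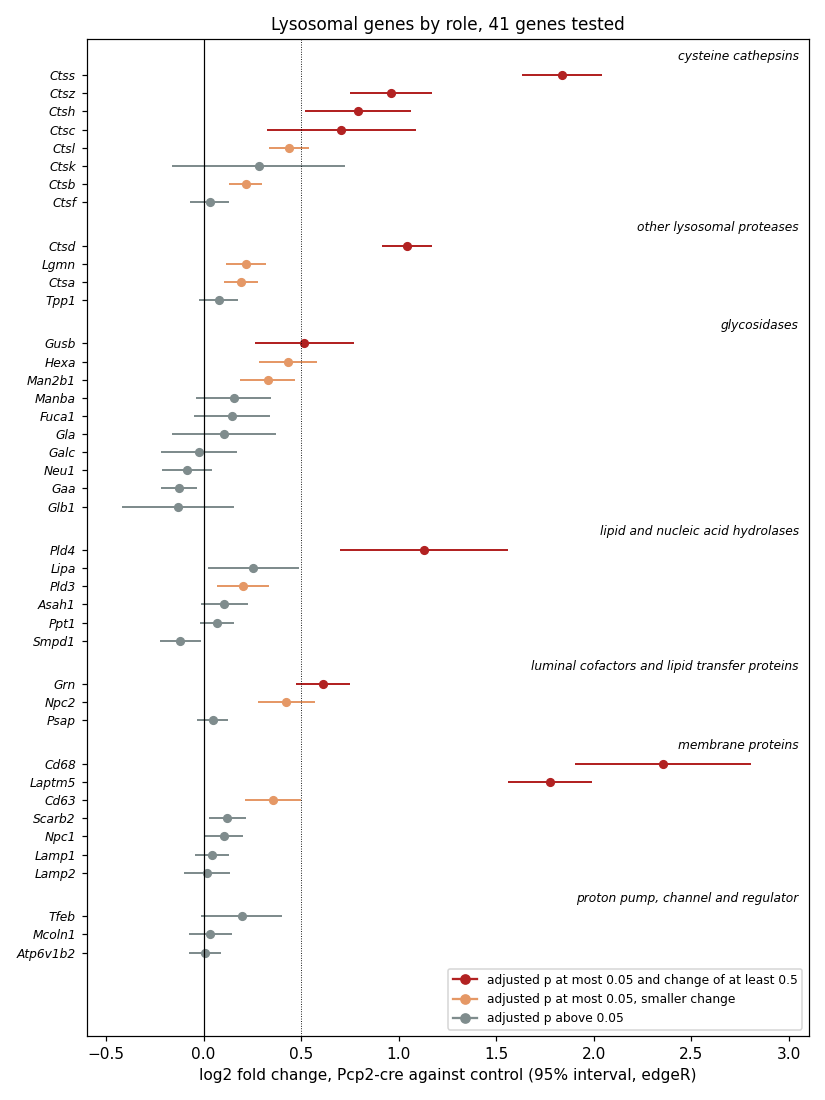
Log2 fold change of 41 lysosomal genes in Pcp2-cre against control cerebellum (x axis), with genes on the y axis grouped by role. Points are edgeR estimates and bars 95% intervals, the dotted line marks the threshold of 0.5, and colors mark the 10 genes called upregulated, the 9 with a smaller rise and the 22 that did not pass.

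*Cd68* had the highest log2 fold change of the set. This gene encodes a heavily glycosylated membrane protein of macrophage and microglial lysosomes and lies on chromosome 11 of GRCm39 from 69555037 to 69557067. Controls had 1.35, 3.96 and 3.34 CPM (11, 27 and 34 counts), and Pcp2-cre mice had 14.3, 14.2 and 16.6 CPM (108, 122 and 112 counts). The log2 fold change was 2.36 (SE, standard error, 0.213, adjusted p = 8.98e-08, edgeR). All Pcp2-cre mice were far above all controls, and control mouse 1 was the lowest. Leaving out single mice gave 2.03 to 2.58.

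*Laptm5*, which encodes a lysosomal membrane protein of haematopoietic cells and microglia (chromosome 4, 130638161 to 130663452), had 10.1, 9.10 and 12.4 CPM in controls. Pcp2-cre mice had 36.1, 37.8 and 38.0 CPM, and the log2 difference was 1.77 (SE 0.101, adjusted p = 8.94e-11, edgeR). The third membrane protein to pass was *Cd63*, a tetraspanin of late endosomes and lysosomes. It had 50.1, 55.7 and 48.7 CPM in controls and 63.6, 65.1 and 72.2 CPM in Pcp2-cre mice, a log2 fold change of 0.36 (adjusted p = 0.00104, edgeR). The groups did not overlap for either gene.

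The 2 major structural glycoproteins of the lysosomal membrane gave small values. *Lamp1* had 279, 285 and 291 CPM in controls and 296, 297 and 305 CPM in Pcp2-cre mice. Its log2 fold change was 0.05 (95% interval -0.04 to 0.13), although every Pcp2-cre mouse lay above every control. *Lamp2* had a log2 fold change of 0.02 (-0.10 to 0.13), with overlapping groups. *Npc1*, the membrane partner in cholesterol export, gave 0.10 (0.01 to 0.20, adjusted p = 0.235, edgeR). *Scarb2*, the receptor that carries glucocerebrosidase to lysosomes, gave 0.12 (0.03 to 0.21, adjusted p = 0.101, edgeR).

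Among the cysteine cathepsins *Ctss* changed most. Cathepsin S cleaves the invariant chain of MHC class II in antigen-presenting cells, and its gene lies on chromosome 3 from 95433963 to 95463717. Controls had 17.3, 17.5 and 14.2 CPM and Pcp2-cre mice had 56.0, 54.8 and 66.5 CPM. The log2 fold change was 1.84 (SE 0.0959, adjusted p = 3.26e-11, edgeR). In FPKM it went from 9.73 to 36.5, and the ratio of *Ctsb* to *Ctss* in mean FPKM went from 9.97 to 3.16.

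*Ctsz*, which encodes the carboxypeptidase cathepsin Z (chromosome 2, 174267304 to 174280832), had 23.4, 29.4 and 23.9 CPM in controls and 50.5, 43.7 and 57.3 CPM in Pcp2-cre mice. Its log2 fold change was 0.96 (SE 0.0991, adjusted p = 6.07e-07, edgeR). *Ctsh*, the gene of an aminopeptidase (chromosome 9, 89936205 to 89958148), had 7.97, 9.25 and 7.96 CPM in controls and 13.5, 14.7 and 16.0 CPM in Pcp2-cre mice, a log2 fold change of 0.79 (adjusted p = 2.14e-04, edgeR). The groups were separate for both genes.

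*Ctsc* was the least certain of the 4 cysteine cathepsins called. It encodes a dipeptidyl peptidase that activates serine proteases of immune cells (chromosome 7, 87927092 to 87960096). Controls had 55, 49 and 46 counts, or 6.75, 7.20 and 4.52 CPM, and Pcp2-cre mice had 63, 90 and 76 counts, or 8.33, 10.5 and 11.3 CPM. The highest control and the lowest Pcp2-cre mouse were close. The log2 fold change was 0.71 (SE 0.181, adjusted p = 0.0161, edgeR). It was not called without control mouse 3 (0.49, adjusted p = 0.098), Pcp2-cre mouse 2 (0.67, adjusted p = 0.112) or Pcp2-cre mouse 3 (0.62, adjusted p = 0.111, all edgeR), nor by DESeq2 (adjusted p = 0.113), and it was 1.12 with control mouse 3 as the sole control.

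Of the remaining cysteine cathepsins *Ctsl* and *Ctsb* passed with a smaller rise and *Ctsf* and *Ctsk* did not pass. *Ctsl*, a broad endopeptidase, had 79.4, 86.2 and 82.8 CPM in controls and 116.6, 109.7 and 116.3 CPM in Pcp2-cre mice, a log2 fold change of 0.44 (adjusted p = 1.18e-06, edgeR). *Ctsb*, which encodes the most abundant member of the group by FPKM, had 466, 485 and 468 CPM in controls and 553, 555 and 570.2 CPM in Pcp2-cre mice, a log2 fold change of 0.21 (adjusted p = 4.68e-04, edgeR). Both were higher in every Pcp2-cre mouse. *Ctsf* had a log2 fold change of 0.03 (-0.06 to 0.12). *Ctsk*, known for bone resorption in osteoclasts, had 3.9 to 6.5 CPM in all mice and gave 0.28 (-0.16 to 0.72).

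*Ctsd* had the largest gain in FPKM of the 41 genes. Cathepsin D is the main aspartic protease of the lysosome, and its gene lies on chromosome 7 from 141929646 to 141941775. Controls had 107.6, 117 and 101.2 CPM and Pcp2-cre mice had 213, 219.5 and 249 CPM. The log2 fold change was 1.04 (SE 0.0586, adjusted p = 8.28e-11, edgeR). It was one of the most abundant genes of the set and the groups were far apart. In FPKM it rose from 100.6 ± 7.52 to 230.0 ± 10.5 (SD, n = 3 mice each), a gain of 129 FPKM beside a summed gain of 209.5 FPKM for all 10 called genes.

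*Lgmn*, the gene of the asparaginyl protease legumain that matures cathepsins, had 75.1, 79.3 and 75.6 CPM in controls and 92.5, 89.9 and 89.1 CPM in Pcp2-cre mice. The log2 fold change was 0.22 (adjusted p = 0.0045, edgeR). *Ctsa*, a serine carboxypeptidase that also stabilizes neuraminidase and beta-galactosidase, had 118, 124 and 120.5 CPM in controls and 139, 141 and 142 CPM in Pcp2-cre mice, a log2 fold change of 0.19 (adjusted p = 0.00218, edgeR). Each rise was small but larger than the spread within groups. *Tpp1*, a tripeptidyl peptidase gene mutated in a neuronal ceroid lipofuscinosis, gave 0.08 (-0.02 to 0.17) and did not pass.

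**Figure D2:**
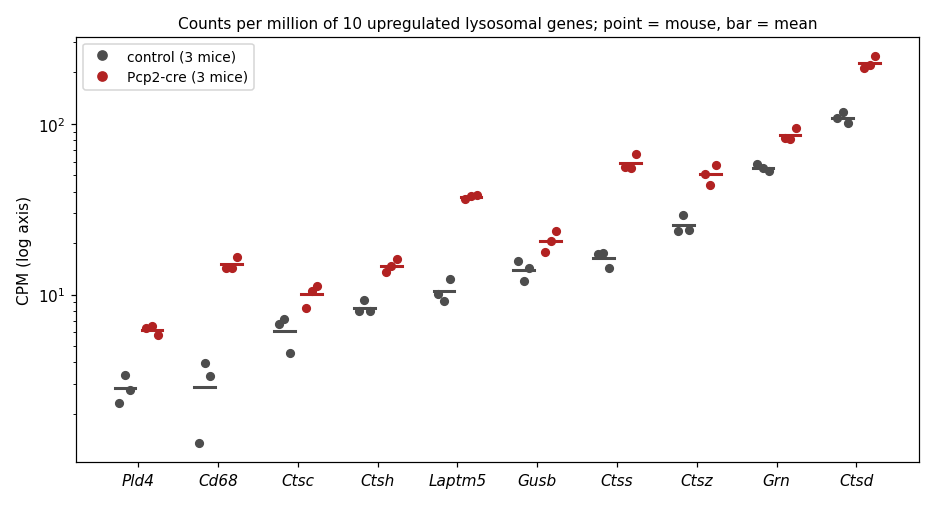
CPM of the 10 upregulated genes (y axis, log scale) in each of 3 control and 3 Pcp2-cre mice, with genes ordered by control mean on the x axis. Points are mice and short lines group means. Every Pcp2-cre mouse lay above every control for all 10 genes, with the narrowest gaps for *Ctsc* and *Gusb*.

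Of 10 glycosidase genes 1 was called and 3 passed the adjusted p, with a median log2 fold change of 0.12. *Gusb*, which encodes beta-glucuronidase (chromosome 5, 130017852 to 130031903), had 15.7, 12.04 and 14.2 CPM in controls and 17.7, 20.6 and 23.5 CPM in Pcp2-cre mice. Its log2 fold change was 0.52 (SE 0.119, adjusted p = 0.00686, edgeR), close to the threshold. Without Pcp2-cre mouse 3 it was 0.42 (adjusted p = 0.0668, edgeR), without control mouse 2 it was 0.43 and under the threshold, and DESeq2 gave an adjusted p of 0.0535.

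*Hexa*, the alpha subunit of beta-hexosaminidase, had 37.0, 40.7 and 41.3 CPM in controls and 56.8, 52.1 and 55.1 CPM in Pcp2-cre mice, a log2 fold change of 0.43 (adjusted p = 1.61e-04, edgeR). *Man2b1*, the lysosomal alpha-mannosidase gene, had 46.6, 48.0 and 45.6 CPM in controls and 58.3, 56.5 and 64.8 CPM in Pcp2-cre mice, a log2 fold change of 0.33 (adjusted p = 0.00206, edgeR). Both sets of groups were separate. The 7 other glycosidase genes (*Gaa*, *Gla*, *Glb1*, *Galc*, *Manba*, *Neu1* and *Fuca1*) did not pass. *Gaa*, the gene of acid alpha-glucosidase, had 167, 175 and 172 CPM in controls and 154, 165 and 161 CPM in Pcp2-cre mice. That was a log2 fold change of -0.13 (adjusted p = 0.0704, edgeR), with every Pcp2-cre mouse below every control.

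Among lipid and nucleic acid hydrolases the related exonuclease genes *Pld3* and *Pld4* gave different values. PLD3 and PLD4 degrade single-stranded nucleic acids in endolysosomes. *Pld4* (chromosome 12, 112727087 to 112735428) had 2.33, 3.38 and 2.75 CPM in controls (19, 23 and 28 counts) and 6.34, 6.53 and 5.79 CPM in Pcp2-cre mice (48, 56 and 39 counts). Its log2 fold change was 1.13 (SE 0.204, adjusted p = 7.26e-04, edgeR). *Pld3*, whose mean FPKM in controls was 16.7 times that of *Pld4*, had 51.5, 55.8 and 53.1 CPM in controls and 62.3, 59.7 and 66.1 CPM in Pcp2-cre mice. That was a log2 fold change of 0.20 (adjusted p = 0.0469, edgeR), past the threshold on adjusted p in 5 of 17 alternative analyses.

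*Lipa*, the lysosomal acid lipase gene, gave a log2 fold change of 0.25 (0.03 to 0.48, adjusted p = 0.208, edgeR) and *Smpd1*, the acid sphingomyelinase gene, gave -0.12 (-0.22 to -0.02, adjusted p = 0.173, edgeR). The acid ceramidase gene *Asah1* and the palmitoyl thioesterase gene *Ppt1* gave 0.10 and 0.07. None of these 4 passed.

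*Grn* encodes progranulin, which is cut into granulins in lysosomes and whose loss causes lysosomal storage and frontotemporal dementia (chromosome 11, 102321141 to 102327874). It had 58.1, 54.9 and 53.0 CPM in controls and 82.3, 81.5 and 95.1 CPM in Pcp2-cre mice, or 0.61 on the log2 scale (SE 0.0633, adjusted p = 6.41e-07, edgeR). *Npc2*, the soluble cholesterol carrier that works with NPC1, had 43.4, 50.2 and 45.9 CPM in controls and 63.8, 59.7 and 67.0 CPM in Pcp2-cre mice, a log2 fold change of 0.42 (adjusted p = 1.82e-04, edgeR). *Psap*, the precursor of the saposins that help degrade sphingolipids, was the most abundant gene of the set. It had 491 ± 19.0 FPKM in controls and 507 ± 5.18 FPKM in Pcp2-cre mice (SD, n = 3 mice each) and a log2 fold change of 0.05 (-0.03 to 0.12).

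None of the tested pump, channel and regulator genes passed the adjusted p. *Atp6v1b2*, a proton pump subunit of 132 FPKM in controls, had a log2 fold change of 0.01 (-0.07 to 0.09). *Mcoln1*, the lysosomal calcium channel gene, gave 0.03 (-0.07 to 0.14). *Tfeb* had 15.8, 15.6 and 15.9 CPM in controls and 18.8, 17.6 and 19.0 CPM in Pcp2-cre mice. Although the groups did not overlap, its log2 fold change of 0.20 (-0.01 to 0.40) did not pass (adjusted p = 0.299, edgeR). *Atp6v0d2*, a pump subunit of osteoclasts and macrophages, was not tested, since it had 0, 1 and 1 counts in controls and 2, 5 and 3 counts in Pcp2-cre mice.

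The classes are set beside their levels, with no test. By FPKM in control cerebellum, the 10 called genes had a median of 4.27 (1.25 to 100.6), the 9 with a smaller rise 28.0 (9.91 to 97.0), and the 22 others 22.3 (1.82 to 491). *Ctsd* was the exception among the called genes. Summed FPKM went from 163 to 372 in the called genes, from 289 to 366 in those with a smaller rise and from 1146 to 1175 in the others. Across the 41 genes Spearman's rho between control FPKM and log2 fold change was -0.47, a description only, since all points share the same 6 libraries, the control level enters both measures and fold changes of low genes are noisier.

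**Figure D3:**
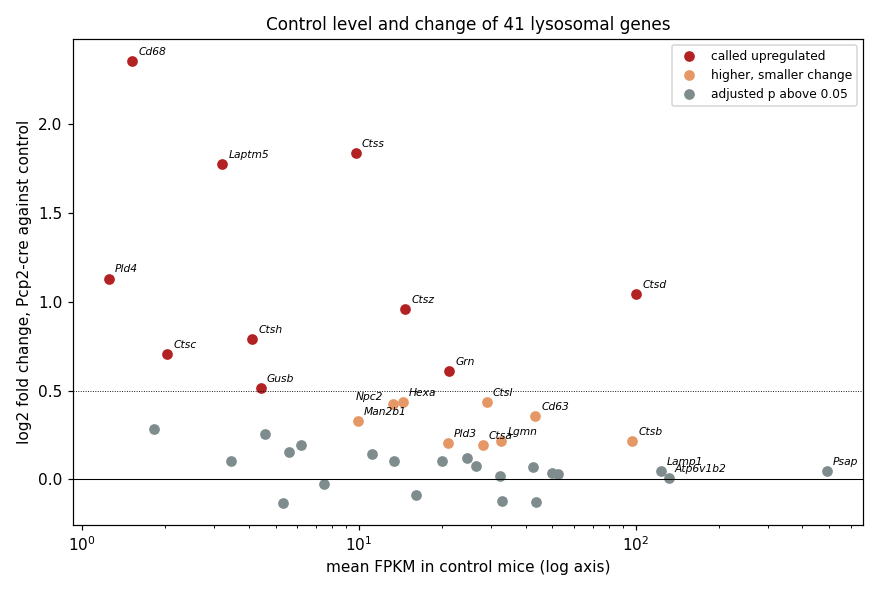
Mean FPKM in control mice (x axis, log scale) and log2 fold change in Pcp2-cre against control (y axis) for 41 lysosomal genes, 1 point each, colored by class. Called genes lie mostly at 1.25 to 21.2 FPKM, with *Ctsd* at 100.6, while *Psap*, *Atp6v1b2* and *Lamp1*, above 120 FPKM, lie near 0.

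Ratios between related genes were compared per mouse as log2 CPM ratios, so that library size cancels. *Ctss* to *Ctsl* was -2.19, -2.30 and -2.53 in controls, while Pcp2-cre mice had -1.06, -0.999 and -0.80, a difference of 1.39. *Cd68* to *Lamp1* differed by 2.42, *Laptm5* to *Lamp1* by 1.76, *Pld4* to *Pld3* by 0.91 and *Npc2* to *Npc1* by 0.32. In each of these 5 pairs the genotypes did not overlap. The 2-sided exact permutation p was 0.10, the smallest that 3 mice against 3 allow, or 0.12 adjusted over the 6 pairs. *Lamp2* to *Lamp1* differed by -0.03 (exact permutation p = 0.80).

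Promoters are shown for 5 genes, because TFEB and its relatives bind a motif with the core CACGTG, found in many lysosomal promoters. Sequences are the 250 bases before the start of the Gencode M39 canonical transcript in GRCm39, written 5′ to 3′ on the gene's strand, with CACGTG in capitals. *Ctsd* (chr7:141941776-141942025, reverse strand) is the sole called gene with the motif. *Lamp1* (chr8:13208871-13209120, forward strand) and *Gla* (chrX:133501905-133502154, reverse strand) have it without a called change. *Cd68* (chr11:69557068-69557317, reverse strand) and *Ctss* (chr3:95433839-95434088, forward strand) have the highest fold changes of the membrane proteins and cathepsins, without it.
Ctsd: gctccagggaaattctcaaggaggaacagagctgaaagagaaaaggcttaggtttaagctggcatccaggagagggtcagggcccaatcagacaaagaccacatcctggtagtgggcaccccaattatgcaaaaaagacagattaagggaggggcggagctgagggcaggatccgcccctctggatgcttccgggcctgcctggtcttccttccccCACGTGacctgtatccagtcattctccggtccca
Lamp1: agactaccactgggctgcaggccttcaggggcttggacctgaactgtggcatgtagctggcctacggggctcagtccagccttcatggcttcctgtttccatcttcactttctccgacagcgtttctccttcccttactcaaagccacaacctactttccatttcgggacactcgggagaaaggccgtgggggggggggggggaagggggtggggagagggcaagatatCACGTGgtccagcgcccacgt
Gla: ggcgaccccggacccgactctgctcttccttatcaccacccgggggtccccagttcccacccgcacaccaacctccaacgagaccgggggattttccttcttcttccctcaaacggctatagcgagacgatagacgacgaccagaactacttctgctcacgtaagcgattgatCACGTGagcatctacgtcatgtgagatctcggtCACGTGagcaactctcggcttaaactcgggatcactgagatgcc
Cd68: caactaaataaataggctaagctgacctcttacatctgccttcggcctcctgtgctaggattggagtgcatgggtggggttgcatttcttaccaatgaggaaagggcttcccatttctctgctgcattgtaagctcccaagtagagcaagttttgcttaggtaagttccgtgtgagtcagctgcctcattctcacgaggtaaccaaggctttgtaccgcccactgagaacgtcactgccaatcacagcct
Ctss: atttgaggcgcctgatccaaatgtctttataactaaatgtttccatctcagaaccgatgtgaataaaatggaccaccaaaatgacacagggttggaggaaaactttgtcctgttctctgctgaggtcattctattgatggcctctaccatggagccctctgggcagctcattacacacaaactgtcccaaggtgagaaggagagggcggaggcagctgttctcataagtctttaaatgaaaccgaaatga

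The core begins 34 bases before the start in *Ctsd*, 21 in *Lamp1*, and 77 and 44 in *Gla*. It was found in 7.55% of 13707 promoters of tested protein-coding genes, and in 5 of the 41 tested lysosomal genes (*Ctsd*, *Gaa*, *Gla*, *Glb1* and *Lamp1*). These were 1 of 10 called genes, 0 of 9 with a smaller rise and 4 of 22 that did not pass. Being a palindrome, the core reads the same on both strands and lies within the longer forms searched, TCACGTGA, found in 1.03% of all promoters and in 1 of the 41 (*Gla*), and the full CLEAR palindrome, the same core flanked by 2 more bases on each side, found in 0.299% and in 0. GAGGAAGT, a form of the motif of the myeloid factor SPI1, searched on both strands, was found in 1.90% of all promoters and in 0 of the 41. Only this exact form was searched. The shorter run GAGGAA within it stands in the *Ctsd*, *Cd68* and *Ctss* sequences shown and not in those of *Lamp1* and *Gla*. That split does not hold across the set. The run also stands in the promoters of the called *Ctsh* and of *Lipa*, *Asah1* and *Ctsf*, which did not pass. It is absent from those of the called *Laptm5* and *Grn*. Its share of all promoters was not counted. In the wider list of lysosomal genes described next, CACGTG was in 20 of 135 promoters (14.8%), TCACGTGA in 10 (7.41%), the full palindrome in 5 (3.70%) and GAGGAAGT in 1 (0.741%). A match is a run of letters in this window, and binding was not measured.

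Other lysosomal genes were read from a wider list of 154 symbols, all but 1 of which matched a gene, and 135 were tested. Of these 5 were called upregulated and 0 downregulated, beside 1.37% and 1.79% of all genes. At any fold change 8 were higher and 5 lower, and 11 were below 0 at an unadjusted p under 0.05. DESeq2 also called 0 downregulated. The median log2 fold change was 0.02.

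*Slc11a1*, a metal transporter of phagosomes, had 10, 8 and 12 counts in controls and 32, 33 and 36 in Pcp2-cre mice (log2 fold change 1.85, adjusted p = 4.11e-05, edgeR). The tetraspanin *Cd9* and the pump subunit *Tcirg1*, known from osteoclasts and immune cells, had log2 fold changes of 0.67 and 0.56. *Cst7*, an inhibitor of cysteine cathepsins, had 1, 0 and 0 counts in controls and 47, 62 and 44 in Pcp2-cre mice. It was at least 18.1-fold higher, taking a floor of 3 counts per control library. Of 19 tested proton pump subunits only *Tcirg1* was called, and of 30 lysosome regulators 0 were. *Laptm4b*, *Slc36a1*, *Tmem106b*, *Mtor* and *Sort1* were lower by less than the threshold, with log2 fold changes of -0.32, -0.21, -0.15, -0.21 and -0.19. *Tfe3* and *Mitf*, relatives of *Tfeb*, gave 0.01 and -0.10 and did not pass.

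Markers of cell types moved with the genotype and are given beside these rises. Summed over 21 microglial markers, controls had 159 to 164 CPM and Pcp2-cre mice 447 to 500.1 CPM, a ratio of 2.91, and 18 of 21 were called upregulated. None of the 21 was at 0 in all mice. The 3 that did not pass were *Tmem119*, *Siglech* and *P2ry12*, with log2 fold changes of 0.06, 0.15 and 0.28, while other markers of microglia at rest were called, such as *P2ry13* (1.34), *Cx3cr1* (1.48) and *Sall1* (0.87). *Cd68* (2.36), *Ctss* (1.84) and *Laptm5* (1.77) were above the median of that list, 1.55, and the other 7 called genes below it. The part of the microglial rise in the lysosomal rises was not tested.

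Purkinje cell markers fell to a ratio of 0.568, with 7 of 10 called downregulated and all 10 lower at the adjusted p. Summed astrocyte and Bergmann glia markers had a ratio of 1.07, with members moving both ways. At the adjusted p 4 of 10 were higher, led by *Gfap* with a log2 fold change of 1.94, and 3 were lower, *Slc1a3* (-0.22), *Gdf10* (-0.25) and *Aldoc* (-0.35), and 2 were called upregulated. *Aldoc* is not specific to glia, since the paper names aldolase C as a marker that separates subsets of Purkinje cells. It made up 1019 of the 4065 CPM of this list in controls and 817 of 4356 CPM in Pcp2-cre mice. Granule cell markers had a ratio of 1.06 (0 of 9 called), oligodendrocyte markers 1.20 (1 of 8 called and 6 higher) and endothelial markers 1.09 (0 of 6). Border macrophage and monocyte markers summed to 11.5 to 14.5 CPM in controls and 15.0 to 19.7 CPM in Pcp2-cre mice, and 0 of 4 tested passed. T and B cell markers summed to 0.734 to 1.47 and 1.45 to 2.23 CPM, 0 of 8 could be tested, and *Cd3g* had no counts in any mouse. The part of these cell types in the lysosomal values was not tested.

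**Figure D4:**
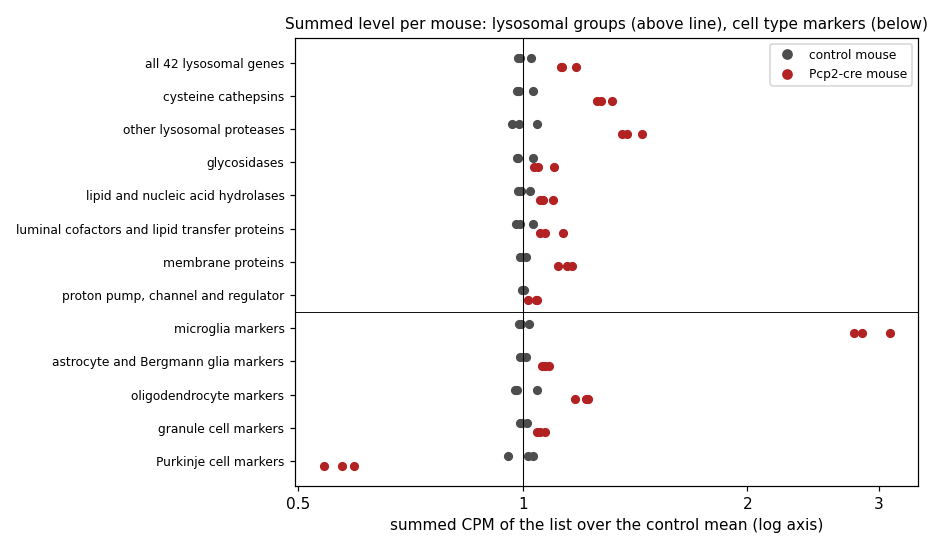
Summed CPM of each list in each mouse divided by the control mean (x axis, log scale), with lysosomal groups by role above the line and cell type markers below it (y axis). Points are mice, 3 a genotype. The 42 lysosomal genes together have a ratio of 1.14, microglial markers 2.91 and Purkinje cell markers 0.568.

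Exons of 19 of the 42 genes overlap those of another counted gene in Gencode M39, and the use of strand in counting is not given in the sources used here. Of the 10 called genes 4 do. *Grn* shares 1273 bases with *Fam171a2*, *Ctsz* 1084 with *Nelfcd* and *Gusb* 640 with *Vkorc1l1*, all on the opposite strand, and none of these 3 neighbours passed the test. *Ctsd* shares 808 bases with *Gm49369*, which had 0 counts in every mouse. *Cd68*, *Ctss*, *Laptm5*, *Pld4*, *Ctsh* and *Ctsc* overlap no counted gene. Of the genes with a smaller rise, *Ctsa*, *Ctsb*, *Ctsl*, *Hexa*, *Npc2* and *Pld3* overlap counted genes, and none of their tested neighbours passed. The longest of these overlaps is that of *Ctsl* with *Gm47123*, 1742 bases on the opposite strand.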

How the data were processed

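Poly A-enriched RNA of whole cerebellum from 6 mice, 3 a genotype, was sequenced. The authors used STAR, GRCm39 and the Gencode annotation. Raw counts were deposited by the authors for 53746 genes, and FPKM, scaled to exon length and library size, for 55005 genes in another table. The processing notes name featureCounts and StringTie. Tool versions, the Gencode release and the use of strand are not given in the sources used here.

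edgeR 4.0.16 under R 4.3.3 tested the deposited counts (TMM scaling, filterByExpr, quasi-likelihood test), with Benjamini-Hochberg adjustment over 16961 genes. CPM scales each count to the library total. Intervals are 95% from the fit. A floor of 3 counts came to 0.295 to 0.446 CPM and covers counting error only, while the intervals also include the spread between mice estimated by edgeR. Ratios between genes were tested with exact permutation tests over mice (prior count 0.5). Gene positions and exon overlaps came from Gencode M39. No library was treated as a duplicate, since replicates had a chi-square per gene of 1.35 to 3.39. Each library is labelled as 1 mouse.

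The members and lists were chosen with earlier results of these data known. All 42 genes are accounted for. Per-mouse values are given for genes past the adjusted p, intervals for the 5 most abundant others, and of the wider list the called genes are named. *Tmem55b*, listed beside its newer symbol *Pip4p1*, was not matched, and 1 gene was matched by identifier. A called gene of the wider list is not reported here. *Gaa*, *Tfeb*, *Lipa*, *Smpd1* and other genes that did not pass, and wider-list genes that were not called, were named after their values were seen.

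Alternatives were DESeq2 1.42.0, its size factors in edgeR, other filters, a replicate block, a covariate for sex or for choroid plexus score, each mouse left out in turn, a log2 threshold of 1, limma 3.58.1 on log2(FPKM + 1) or log2(FPKM + 0.1), and control mouse 3 as the sole control. The fit was tested on simulated counts with known changes.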

Additional observations from a re-analysis of the deposited data

How the results depend on the processing

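The count of 10 lysosomal genes called upregulated was 8 with DESeq2, 8 to 10 with each mouse left out in turn, 10 or 11 with FPKM, and 10 in every other alternative at the same threshold. With the log2 threshold raised to 1 it was 5. In every alternative 0 were called downregulated. The count past the adjusted p at any fold change, 19, was 12 with log2(FPKM + 1) and no filter, 15 in the other FPKM fits and with DESeq2, and 16 to 19 with each mouse left out. The median log2 fold change of 0.20 was 0.19 without a filter on low counts, 0.23 with a choroid plexus score as covariate, 0.18 to 0.23 with each mouse left out, 0.17 with log2(FPKM + 1), 0.18 with log2(FPKM + 0.1), 0.16 with log2(FPKM + 1) and no filter, and 0.24 with control mouse 3 as the sole control, an alternative chosen after seeing the data, in which that mouse is assumed to vary like the Pcp2-cre mice. FPKM called *Ctsl* (0.71 with log2(FPKM + 0.1), against 0.44 in counts) and *Hexa* (0.55 against 0.43) but not *Ctsc*. With log2(FPKM + 1) and no filter *Pld4* was not called either (adjusted p = 0.0675, limma). The wider list had 3 called upregulated with at least 10 counts in every mouse, 3 with the threshold raised to 1, and 4 to 6 otherwise. The targeted gene *Sting1* gave 0.46 with log2(FPKM + 1) (0.46 without a filter) and 0.49 with log2(FPKM + 0.1), and 0.45 to 0.65 with each mouse left out. The *Ctss* to *Ctsl* ratio differed by 1.20 in FPKM. Where a value moved, the cause was not tested, except that the higher threshold and stricter filter leave fewer genes by construction.

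Mice share replicate numbers across genotypes, but same-numbered mice did not deviate together (correlations of -0.0212, 0.0004 and -0.0105). With the replicate block 10 genes were called upregulated and 19 passed the adjusted p. With 3 mice a genotype and low counts in *Pld4*, *Cd68*, *Ctsc* and *Ctsk*, small changes in these genes would not be detectable.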

Other observations

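Counts and FPKM disagreed for some neighbours of lysosomal genes on the opposite strand, which were chosen after their values were seen. *Grtp1*, which shares 2564 bases with *Lamp1*, had 87.9 CPM but 1.502 FPKM in controls, where *Lamp1* had 285 CPM and 123 FPKM. *Slc15a3*, a lysosomal histidine and peptide transporter gene that shares 1542 bases with *Tmem132a*, had 1585, 1444 and 2150 counts in controls and 1695, 1875 and 1515 in Pcp2-cre mice, a log2 fold change of 0.08 (adjusted p = 0.329, edgeR). In FPKM the same gene had 0.263, 0.0640 and 0.254 in controls and 1.20, 1.35 and 1.08 in Pcp2-cre mice, and these ranges did not overlap. The part of the shared bases in these values was not tested.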
